A study of Mus musculus with 16 samples.

Results

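Glycolysis and hypoxia response genes were examined as a listed set of 32 genes, of which 31 were measured among 9223 genes in a count table. The list held 3 transporters (Slc2a1, Slc2a3, Slc16a3), 15 glycolytic enzymes, 3 regulators of the hypoxia response (Hif1a, Egln1, Egln3) and 11 of its targets. The target Vegfa was not analysed here, which left 10 targets. The cells were Pmel CD8 T cells, described as CD8+Thy1.1+, from skin, liver, lung and draining lymph node (LN) of C57BL/6 mice with melanoma-associated vitiligo (MAV). All 4 groups shared strain, disease state, an age of 16 weeks and a time of 45 days after tumor surgery, and there was no group without disease or tumor. Pmel T cells carry a transgenic T cell receptor for the melanocyte and melanoma antigen gp100, and Thy1.1 marks them apart from host T cells. The sources used here do not give how many mice were used or pooled, or how the cells were sorted.

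Glycolysis splits glucose into pyruvate. Glucose enters through transporters such as GLUT1 (Slc2a1) and GLUT3 (Slc2a3), a chain of enzymes from hexokinase to pyruvate kinase converts it, and lactate dehydrogenase turns pyruvate into lactate that leaves through MCT4 (Slc16a3). When oxygen is low, the prolyl hydroxylases encoded by Egln1 and Egln3 no longer mark HIF-1alpha (Hif1a) for degradation, and the stabilized factor binds short promoter elements of genes for glycolysis, lipid storage and mitophagy. In activated T cells, receptor and growth factor signals also raise glycolytic genes without a lack of oxygen.

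The table named 1 set of cells per tissue, so no difference between tissues has a replicate and none was tested. It held 1224 skin, 556 liver, 2322 lung and 1625 lymph node cells, with summed counts between 1928185 in liver and 8072278 in lung and a median of 2517.5 to 3095.5 counts per cell. Levels are CPM, a gene's share of all counts in the pooled cells of a tissue, scaled to 1000000, and brackets give exact 95% intervals for counting error alone. Column names of skin and lymph node cells carry a 2 that those of liver and lung lack, and 14 genes named as pseudogenes followed that split: they summed to 7766 CPM in skin, 7074 in lymph node, 2102 in liver and 2149 in lung. Skin over lymph node and liver over lung are comparisons within a naming, and in the other 4 comparisons tissue and naming cannot be told apart. Of the barcodes, 19 occurred in 2 tissues. All 8 CD8 T cell markers were detected in every tissue, the least frequent of them (Thy1) in 62.2% to 78.1% of cells. Dissociation also differed: the lymph node was processed mechanically, the 3 other organs were digested with enzymes at 37 °C, and only liver and lung passed a Percoll gradient, per the labels' protocols. Summed CPM of the 4 immediate early genes Fos, Fosb, Egr1 and Nr4a1 was 2775 in skin, 254 in liver, 163 in lung and 107 in lymph node. The part of dissociation in the results was not tested, and the splits given further on compare only cells of the same organ.

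HIF binds the core ACGTG or GCGTG, which reads CACGT or CACGC on the opposite strand. RefSeq promoters (GRCm38.p6, 250 bases before to 50 after a start) were found for 29 of the 31 genes, up to 3 for a gene. Of the 29 genes, 27 held such a core on either strand in any of their promoters, against 69.8% of 7108 genes of the table counted alike. ACGTG alone was in 22 of the 29, against 30.8% of those genes. The palindrome CACGTG, which contains ACGTG on both strands, was in 4 of the 29, against 12.4%. Counted by single promoters, 43.8% of 32851 held a core, 19.6% held ACGTG and 7.15% held CACGTG. The stretches below belong to genes on which the following results turn: Hk2, Ddit4, P4ha1 and Pgk1, each shown upstream of its annotated start, and 3 short windows at the start of Hilpda. Capitals mark the cores, sequences run 5′ to 3′ on the strand of the gene, and a match describes letters, not binding.
Hk2, chr6:82774455-82774704, minus strand: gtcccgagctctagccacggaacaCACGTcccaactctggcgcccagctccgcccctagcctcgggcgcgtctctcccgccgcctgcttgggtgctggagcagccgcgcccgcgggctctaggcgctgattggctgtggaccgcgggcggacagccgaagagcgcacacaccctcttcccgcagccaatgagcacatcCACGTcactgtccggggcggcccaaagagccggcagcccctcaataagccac
Ddit4, chr10:59951835-59952020, minus strand: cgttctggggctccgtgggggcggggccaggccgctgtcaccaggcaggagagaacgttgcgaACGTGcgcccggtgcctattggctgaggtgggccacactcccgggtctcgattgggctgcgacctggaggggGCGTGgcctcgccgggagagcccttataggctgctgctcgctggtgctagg
P4ha1, chr10:59323046-59323295, plus strand: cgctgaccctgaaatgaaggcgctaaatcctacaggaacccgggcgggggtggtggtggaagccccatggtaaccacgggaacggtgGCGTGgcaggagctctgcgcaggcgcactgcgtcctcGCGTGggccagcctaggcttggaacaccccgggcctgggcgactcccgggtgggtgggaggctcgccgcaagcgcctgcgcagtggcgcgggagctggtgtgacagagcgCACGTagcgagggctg
Pgk1, chrX:106186850-106187099, plus strand: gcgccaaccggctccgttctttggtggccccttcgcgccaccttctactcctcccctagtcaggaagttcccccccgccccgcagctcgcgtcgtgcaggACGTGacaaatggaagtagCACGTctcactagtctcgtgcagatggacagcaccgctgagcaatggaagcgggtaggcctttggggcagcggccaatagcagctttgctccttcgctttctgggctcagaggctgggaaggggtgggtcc
Hilpda, chr6:29272503-29272531, plus strand: caaccgcgagccGCGTGctttccgtgact
Hilpda, chr6:29272571-29272599, plus strand: gatggccagcggACGTGccccagggcgag
Hilpda, chr6:29272606-29272634, plus strand: caggttcggtacGCGTGcgcagtctccga

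Skin cells held the highest level of 19 of the 31 genes, among them 12 of the 18 transporters and enzymes and 7 of the 13 hypoxia response genes. Over all genes with at least 20 counts, skin was highest for 28%. Skin was at least 2-fold above each other tissue for 8 genes, against 3.04% of all genes: Slc16a3, Hk2, Tpi1, Pgk1, Eno1, Ldha, P4ha1 and Ankrd37. With the scaling factors used as an alternative further on, Ldha fell under 2-fold over lung and liver and Ankrd37 over liver. It was lowest for Gpi1, Pfkp and Ldhb, 3 of the 31 against 25% of all genes. Liver did not share the enzyme pattern: summed over the 15 enzymes, skin reached 4936 CPM, liver 2539, lung 2554 and lymph node 2645. Liver shared with skin a small set, led by the lipid droplet gene Hilpda and the hexokinase gene Hk2. These were the only 2 of the 31 genes at least 2-fold higher in both skin and liver than in both lung and lymph node, a pattern met by 0.65% of all genes.

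**Figure D1:**
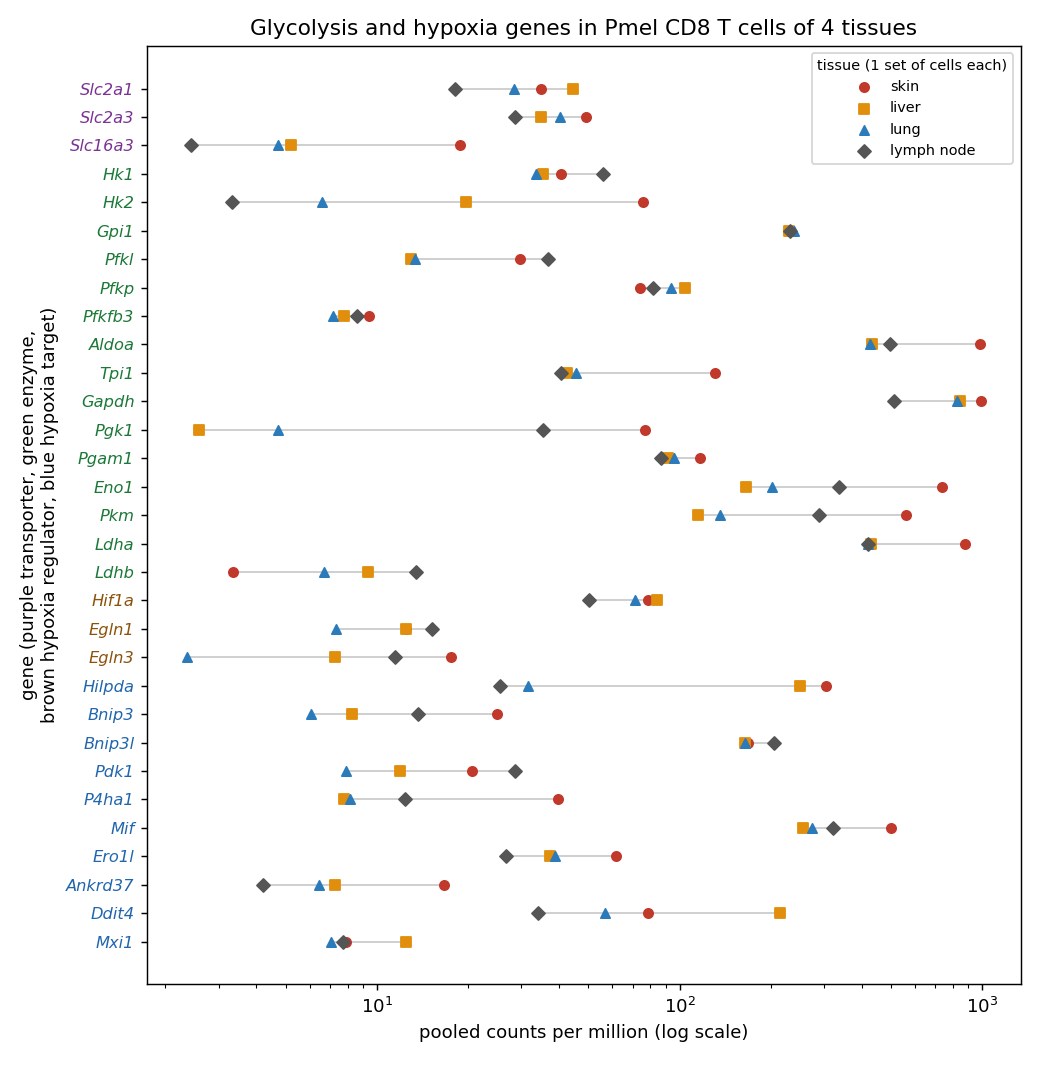
Pooled level in CPM of each of the 31 genes (log axis) in skin, liver, lung and lymph node, 1 point per tissue with no replicate. Skin is the highest point for 19 genes, and Hilpda and Hk2 are the genes with skin and liver both at least 2-fold above lung and lymph node.

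Among the transporters, the lactate exporter gene Slc16a3 differed most. Its level was 18.8 CPM in skin, 5.19 in liver, 4.71 in lung and 2.43 in lymph node, so skin stood apart from the other 3 tissues. Skin exceeded lymph node 7.76-fold (4.05 to 16.3) and liver 3.63-fold (1.85 to 7.94). In liver, lung and lymph node, however, Slc16a3 was detected in no larger a share of cells than a B cell or airway gene, so those levels rest on few cells. The glucose transporter Slc2a1 was highest in liver at 44.6 CPM, with 34.9 in skin, 28.4 in lung and 18.1 in lymph node. Slc2a3 ran from 28.7 CPM in lymph node to 49.2 in skin, with 34.7 in liver and 40.1 in lung. Lymph node had the lowest level of all 3 transporters. Liver over lung was 1.57-fold (1.21 to 2.02) for Slc2a1, while liver and lung did not differ beyond counting error for Slc2a3 and Slc16a3.

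Hexokinase 2, the inducible enzyme of the first step of glycolysis, showed the widest skin difference within a naming. Hk2, on chromosome 6 at 82725025 to 82774454 (GRCm38, minus strand), stood at 75.9 CPM in skin, 19.7 in liver, 6.57 in lung and 3.31 in lymph node. The 4 levels formed a gradient in which each neighbouring pair was at least 1.98-fold apart. The steps from skin to liver and from lung to lymph node run across the namings. The latter, 1.98-fold (1.10 to 3.79), rests on 53 and 15 counts. Skin exceeded lymph node 22.9-fold (13.7 to 41.6) and liver exceeded lung 3.00-fold (1.92 to 4.64). In lung and lymph node, Hk2 was detected in no larger a share of cells than the background genes described with the shares of cells. Hk1, the constitutive hexokinase, differed from Hk2 in the place of lymph node: it was highest there at 55.8 CPM, with 40.7 in skin, 35.3 in liver and 33.6 in lung. Gpi1, the next enzyme of the chain, was nearly level at 228 to 238 CPM across the tissues.

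The phosphofructokinase step, the main control point of the chain, did not follow hexokinase. Pfkp was highest in liver at 104 CPM and lowest in skin at 74.1, with 93.4 in lung and 81.4 in lymph node. Pfkl was 36.6 CPM in lymph node and 29.8 in skin against 13.0 in liver and 13.4 in lung, the order that the naming of columns also follows. Pfkfb3, whose product makes the activator of phosphofructokinase, stayed between 7.19 and 9.42 CPM. None of these 3 genes differed between skin and lymph node beyond counting error.

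From aldolase to lactate dehydrogenase the enzymes were highest in skin, Ldhb aside, and over lymph node by a smaller factor than Hk2. Aldoa (aldolase) stood at 986 CPM in skin, 433 in liver, 427 in lung and 496 in lymph node. Tpi1 (triose phosphate isomerase) stood at 131 CPM in skin against 42.5 in liver, 45.6 in lung and 40.6 in lymph node, 3.23-fold (2.71 to 3.86) over lymph node. Ldha, which makes lactate, stood at 880 CPM in skin and between 418 and 428 in the other 3 tissues, ratios that fell under 2-fold when ribosomal protein and mitochondrial genes were left out of the totals. For these 3 genes skin was set apart while the other tissues lay close to each other. Gapdh was 989 CPM in skin, 842 in liver, 823 in lung and 511 in lymph node, so lymph node rather than skin stood apart. Pgam1 was 117 CPM in skin and 86.9 to 95.9 elsewhere, 1.34-fold (1.16 to 1.55) over lymph node.

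Eno1, Pkm and Pgk1 were also highest in skin, but lymph node came next, ahead of liver and lung. Enolase 1 (Eno1) was 736 CPM in skin, 337 in lymph node, 203 in lung and 165 in liver. Pyruvate kinase (Pkm) was 558 CPM in skin, 288 in lymph node, 136 in lung and 115 in liver. Phosphoglycerate kinase (Pgk1) was 77.2 CPM in skin and 35.3 in lymph node but 4.71 in lung and 2.59 in liver, the latter from 5 counts. Within the naming, skin over lymph node was 2.18-fold for both Eno1 (2.04 to 2.33) and Pgk1 (1.79 to 2.68) and 1.94-fold (1.80 to 2.08) for Pkm. The Pgk1 ratio, like that of Ero1l among the targets, fell under 2-fold when cells with an immediate early count were left out, which kept 48 skin cells. The much wider Pgk1 ratio of skin over liver, 29.8-fold (12.6 to 92.4), runs across it, and Pgk1 was not above the background share of cells in liver or lung. Pfkl, Pkm and Pgk1 were the 3 listed genes at least 2-fold higher in both skin and lymph node than in both lung and liver, as were 5.87% of all genes. With trimmed mean (TMM) factors in place of plain totals, Pgk1 kept this pattern, while Pfkl fell under 2-fold for skin over lung and liver and Pkm for lymph node over lung and liver. Several of these enzymes have near-identical processed copies in the genome, and the sources used here do not say how reads were divided among copies. Ldhb, the isozyme that favours pyruvate, was the 1 enzyme at least 2-fold lower in skin than in lymph node: 3.34 CPM in skin (11 counts), 9.34 in liver, 6.69 in lung and 13.5 in lymph node.

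Of the regulators, Hif1a differed least and Egln3 most. Hif1a was 84.5 CPM in liver, 78.7 in skin, 71.2 in lung and 50.1 in lymph node, 1.57-fold (1.31 to 1.89) higher in skin than in lymph node. Egln1 lay between 7.31 CPM in lung and 15.2 in lymph node. Egln3, a hydroxylase that is itself a HIF target, was 17.6 CPM in skin, 11.5 in lymph node, 7.26 in liver and 2.35 in lung, 7.49-fold (4.39 to 13.3) higher in skin than in lung across the namings. The liver over lung ratio of Egln3 was 3.08-fold (1.43 to 6.49), from 14 and 19 counts, in a share of cells that did not exceed background in either organ.

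Hilpda, which encodes an inhibitor of lipolysis at lipid droplets and is a HIF target, was the hypoxia target that set skin and liver apart from the rest. Its level was 305.6 CPM in skin and 249.5 in liver against 31.6 in lung and 25.6 in lymph node. Neither high tissue came near the low ones, and skin and liver were 1.23-fold (1.10 to 1.37) apart. The ratio was 11.9-fold (9.84 to 14.6) for skin over lymph node and 7.90-fold (6.77 to 9.23) for liver over lung, so it was seen within both namings. Ddit4, which encodes the mTORC1 inhibitor REDD1, was highest in liver: 214 CPM there, 78.4 in skin, 56.6 in lung and 34.0 in lymph node. Liver exceeded lung 3.78-fold (3.30 to 4.33) and skin 2.73-fold (2.33 to 3.21), and skin exceeded lymph node 2.31-fold (1.88 to 2.84).

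Among the other targets, skin was highest for 5 (P4ha1, Ankrd37, Ero1l, Bnip3 and Mif). P4ha1, a prolyl hydroxylase subunit of collagen synthesis, was 39.8 CPM in skin, 12.4 in lymph node, 8.18 in lung and 7.78 in liver, 3.22-fold (2.34 to 4.49) over lymph node. Ankrd37 was 16.7 CPM in skin and 4.19 to 7.26 elsewhere, and Ero1l, an oxidase of disulfide formation, was 61.7 CPM in skin and 26.7 to 38.8 elsewhere. In liver, lung and lymph node, P4ha1 and Ankrd37 were not above the background share of cells, and the Ankrd37 difference between skin and liver fell under 2-fold with TMM factors and in thinned cells. The mitophagy receptor gene Bnip3 was 24.9 CPM in skin, 13.7 in lymph node, 8.30 in liver and 6.07 in lung. The cytokine gene Mif was 498 CPM in skin, 322 in lymph node, 274 in lung and 255 in liver. Pdk1, whose kinase keeps pyruvate out of the mitochondria, was highest in lymph node at 28.7 CPM, with 20.7 in skin, 11.9 in liver and 7.93 in lung. Bnip3l was also highest in lymph node at 205 CPM and lay between 164 and 169 in the other tissues. Mxi1 was 12.5 CPM in liver and 7.06 to 7.90 elsewhere. Skin over lymph node was 1.82-fold (1.29 to 2.58) for Bnip3 and 0.72-fold (0.53 to 0.97) for Pdk1, while across the namings Pdk1 was 2.61-fold (1.82 to 3.72) higher in skin than in lung.

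**Figure D2:**
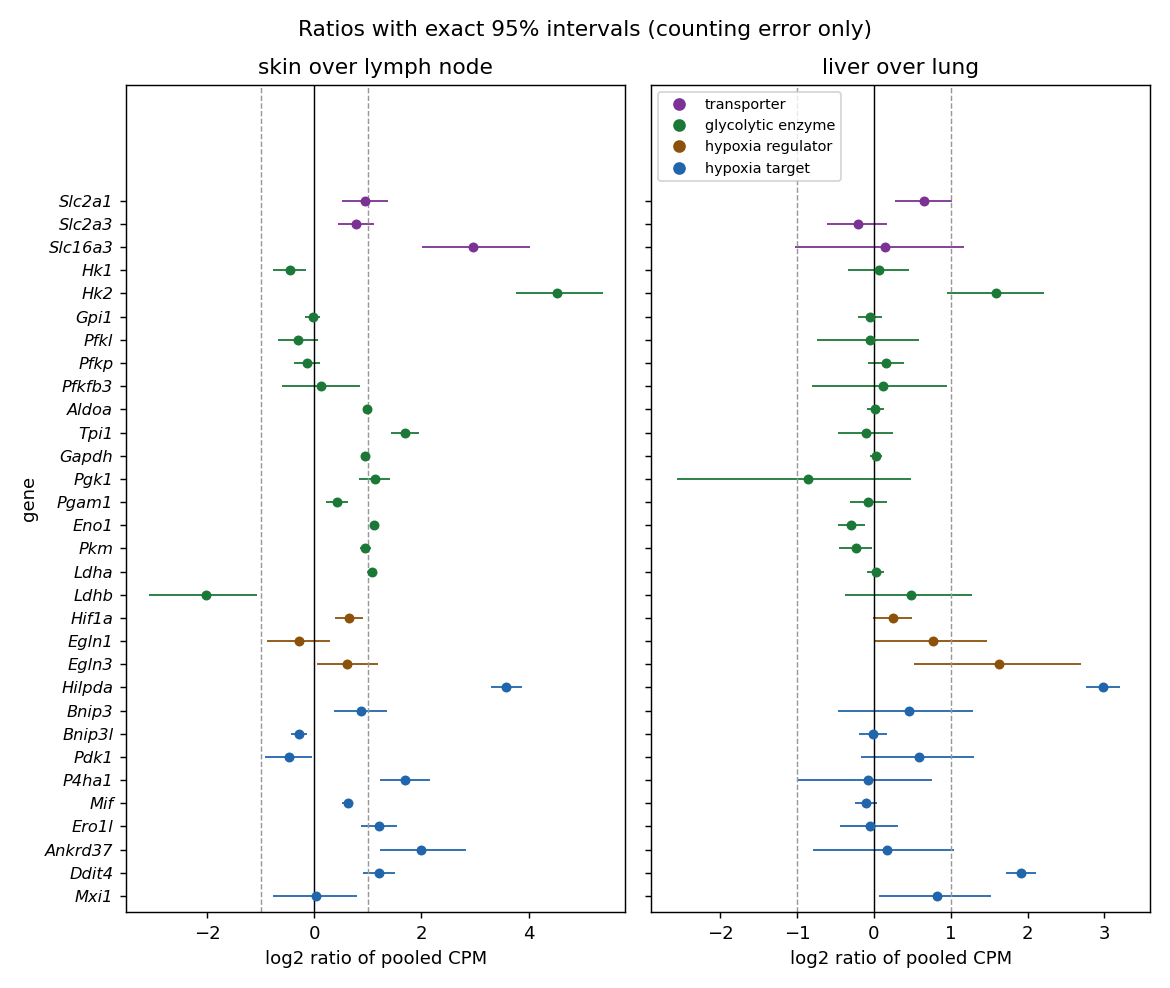
Log2 ratio of pooled CPM for each gene in skin over lymph node (left) and liver over lung (right), the comparisons within a column naming. Points are ratios, bars are exact 95% intervals for counting error only, and dashed lines mark 2-fold. In skin, 11 genes of both kinds lie past 2-fold higher, whereas in liver the 4 that do are Hk2, Egln3, Hilpda and Ddit4.

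Counted over all 31 genes, 11 were at least 2-fold higher in skin than in lymph node, where 5.59% of all genes were, and 1 was at least 2-fold lower, against 10.3%. The 11 were Slc16a3, Hk2, Tpi1, Pgk1, Eno1, Ldha, Hilpda, P4ha1, Ero1l, Ankrd37 and Ddit4. The median log2 ratio was 0.95 over transporters and enzymes and 0.65 over hypoxia response genes, beside -0.20 over all genes. For liver over lung, 4 genes were at least 2-fold higher, against 2.56% of all genes, and 0 were lower, against 3.41%. The median there was 0.02 over transporters and enzymes and 0.45 over hypoxia response genes, beside -0.04 over all genes.

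Across the namings, skin over lung had 15 genes at least 2-fold higher (15.7% of all genes) and 1 lower (6.37%). Skin over liver had 13 higher (16.4%) and 2 lower (5.07%), the 2 being Ddit4 and Ldhb. Liver over lymph node had 5 higher (3.92%) and 5 lower (22%), and lung over lymph node had 0 higher (3.58%) and 8 lower (18.3%). With TMM factors, liver over lymph node had 9 higher and 2 lower and lung over lymph node 5 and 4. The shares of all genes were then 7.4% and 11.1% for liver over lymph node and 6.15% and 8.38% for lung over lymph node. Those factors moved the log2 ratios of these comparisons by 0.40 and 0.38, and no direction relative to lymph node is drawn from the counts for liver and lung. The 5 genes higher in liver than in lymph node were Slc2a1, Slc16a3, Hk2, Hilpda and Ddit4, with ratios of 2.46, 2.14, 5.96, 9.75 and 6.30, the interval for Slc16a3 including 1.

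Set against lung and lymph node together, both skin and liver were higher for 10 of the 31 genes, against 7.78% of all genes. They were Slc2a1, Slc16a3, Hk2, Gapdh, Ldha, Hif1a, Hilpda, Ankrd37, Ddit4 and Mxi1, 5 from each side of the list. Averaged with equal weight for each tissue on the log2 scale, the skin and liver excess was 9.71-fold for Hilpda, 8.30-fold for Hk2, 2.95-fold for Ddit4 and 2.92-fold for Slc16a3. With Egln3 and Ankrd37, 6 of the 31 genes were past 2-fold by this average, against 3.4% of all genes. For 3 of the 6, liver was not above the background share of cells: Slc16a3 and Ankrd37 did not differ between liver and lung beyond counting error, and Egln3 in liver was 0.63-fold its level in lymph node (0.32 to 1.16). The median was 1.25-fold over transporters and enzymes and 1.49-fold over hypoxia response genes, beside 0.92-fold over all genes. Both tissues were lower for 1 gene, Gpi1, against 17.8% of all genes, and its 4 levels did not differ beyond counting error. Lymph node was the lowest tissue for 13 genes, against 10.7% of all genes, and the highest for 6 (Hk1, Pfkl, Ldhb, Egln1, Bnip3l and Pdk1), against 49.7%. The split that follows the naming, skin and lymph node both above lung and liver, held 14 of the 31 genes, against 46.4% of all genes.

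Isozyme pairs changed their balance between tissues, which does not depend on gene length or on the total count. Hk2 made up 65.1% (60.1 to 69.9) of the hexokinase pair's counts in skin, 35.8% (26.8 to 45.7) in liver, 16.4% (12.5 to 20.8) in lung and 5.60% (3.17 to 9.06) in lymph node. None of these 4 intervals overlapped, and skin was the only tissue in which Hk2 counts outnumbered those of Hk1. Ldha supplied 99.6% (99.3 to 99.8) of the lactate dehydrogenase pair in skin and 96.9% (96.0 to 97.6) in lymph node. Pfkp supplied 88.9% of its pair in liver and 87.5% in lung but 71.3% in skin and 69.0% in lymph node, again the order of the naming. Slc2a1 made up 56.2% (48.0 to 64.2) of its pair in liver and 38.7% to 41.5% elsewhere. Bnip3 made up 12.9% (10.4 to 15.7) of the mitophagy pair in skin and 3.55% to 6.25% elsewhere. Egln3 made up 58.6% (48.2 to 68.4) of its pair in skin and 24.4% (15.4 to 35.4) in lung. It made up 43.0% (34.0 to 52.3) in lymph node and 36.8% (21.8 to 54.0) in liver, intervals that overlap that of skin.

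**Figure D3:**
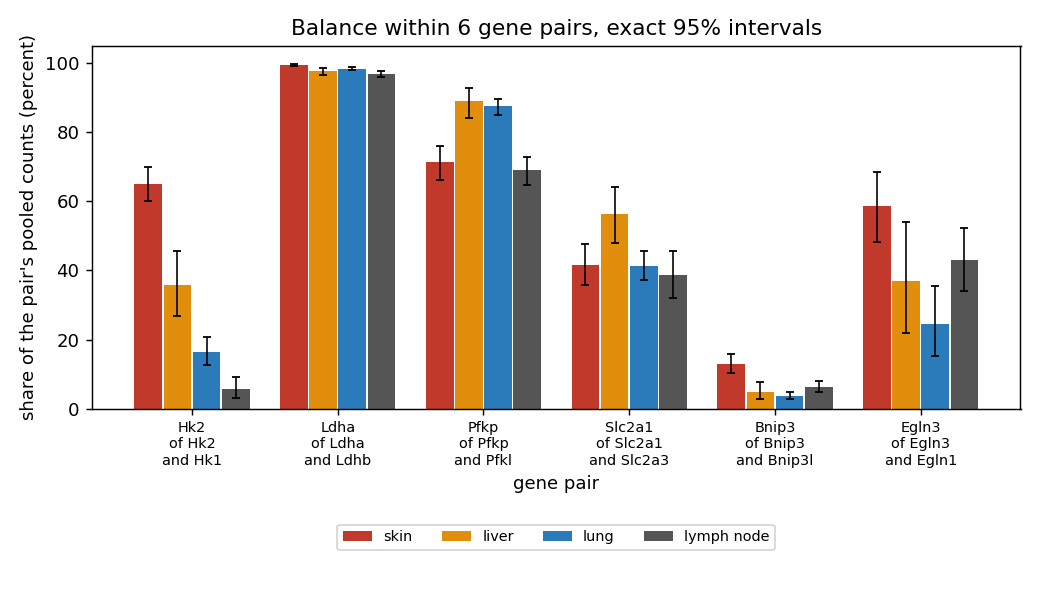
Share of the first-named gene in the pooled counts of 6 gene pairs, in percent, by tissue, with bars for exact 95% intervals. The Hk2 share falls from 65.1% in skin through liver and lung to 5.60% in lymph node, while Ldha exceeds 96% of its pair in every tissue.

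For shares of cells with a count, all cells were thinned to a depth of 1886 counts, which left 1083 skin, 529 liver, 2049 lung and 1494 lymph node cells. Hilpda was detected in 28.2% (25.5 to 30.9) of skin and 28.7% (24.9 to 32.8) of liver cells but 6.30% of lung and 5.42% of lymph node cells. Ddit4 was detected in 28.7% (24.9 to 32.8) of liver cells and 11.2% (9.36 to 13.2) of skin cells, with 8.98% in lung and 5.35% in lymph node. Hk2 was detected in 11.3% (9.44 to 13.3) of skin and 3.78% (2.32 to 5.78) of liver cells, 0.98% of lung and 0.60% of lymph node cells. Before thinning the Hilpda shares were 31.0%, 38.3%, 10.1% and 6.89%, and the Hk2 shares 14.3%, 6.29%, 2.24% and 0.86%, in the order skin, liver, lung and lymph node. As a background, the most frequent of 7 B cell and airway genes was detected in 1.20% of skin, 2.46% of liver, 2.34% of lung and 2.28% of lymph node cells. At or under it were 1 listed gene in skin (Ldhb), 12 in liver, 13 in lung and 6 in lymph node (Slc16a3, Hk2, Pfkfb3, P4ha1, Ankrd37 and Mxi1). The 12 in liver, which with Hk2 made up the 13 in lung, were Slc16a3, Pfkl, Pfkfb3, Pgk1, Ldhb, Egln1, Egln3, Bnip3, Pdk1, P4ha1, Ankrd37 and Mxi1. This background marks low detection and does not show that a gene at or under it was not expressed. Its 7 genes were picked after the data were seen, and the counts of listed genes depend on that choice. The keratinocyte gene Sfn was detected in 6.93% of skin, 7.37% of liver, 3.61% of lung and 2.01% of lymph node cells. Slc16a3 in skin (3.69%) and Hk2 in liver (3.78%) lay under Sfn but above the 7 genes. Enzyme transcripts were spread widely: a thinned skin cell had a median of 8 counts over the 15 enzymes, against 4 in liver and lung and 5 in lymph node. The median of hypoxia targets was 2 counts in skin and liver and 1 in lung and lymph node. Without Hilpda and Ddit4, the targets summed to 838 CPM in skin but 504 in liver, 513 in lung and 621 in lymph node. The liver excess of the summed targets thus lay in those 2 genes, taken out after their values were seen. Mif (255 CPM) and Bnip3l (164 CPM) made up most of the remaining liver sum, which says little of the low targets. Of the 10 targets, 6 were higher and 4 lower in liver than in lung to any degree. Besides Hilpda and Ddit4, the interval lay above 1 for Mxi1, at 1.76-fold (1.05 to 2.89).

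The skin excess of enzymes included a tail of cells with very high counts. Summed over Aldoa, Eno1 and Ldha, 3 genes picked after their values were seen, 125 of the 1083 thinned skin cells (11.5%, 9.70 to 13.6) had at least 9 counts. Such cells numbered 0 of 529 in liver, 0 of 2049 in lung and 4 of 1494 in lymph node. The upper bounds for liver and lung were 0.69% and 0.18%. The limit of 9 counts was an upper percentile of the skin cells' own sums, so the skin share was largely fixed by that choice. Its interval and the contrast with the other tissues carry the same choice. The class is a range and not a cell type: 38 skin cells lay at the limit of 9 counts and 50 lay 1 count below it. The whole skin distribution was also shifted, with a median of 4 counts of these genes per cell against 2 in each other tissue.

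**Figure D4:**
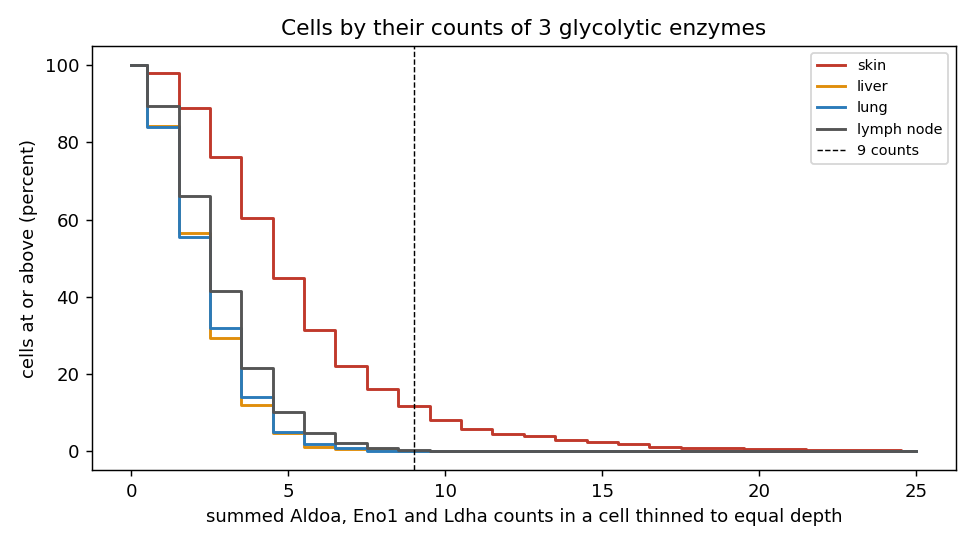
Percent of thinned cells (y axis) with at least a given summed count of Aldoa, Eno1 and Ldha (x axis), by tissue. The dashed line at 9 counts is a limit taken from the skin cells themselves. At 9 counts or more stand 11.5% of skin cells and 0 liver or lung cells.

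Against the other 958 skin cells, those 125 had higher levels of most other listed enzymes. Summed over the 12 enzymes not used to choose them, the level was 4141 CPM against 2012, 2.06-fold (1.91 to 2.21). Tpi1 was 4.24-fold (3.22 to 5.56), Pgk1 3.22-fold (2.26 to 4.54) and Pfkp 2.40-fold (1.58 to 3.56) higher. Slc16a3 was 4.85-fold (2.48 to 9.22) higher, and among the hypoxia targets Bnip3 was 5.33-fold (3.14 to 8.93), Pdk1 2.57-fold (1.17 to 5.20), Mif 2.15-fold (1.84 to 2.49) and Ero1l 2.04-fold (1.27 to 3.17) higher. Hk2 was 1.59-fold (1.01 to 2.42) higher. Hilpda, the leading target of skin as a whole, was 265 CPM in the enzyme-rich cells and 332 in the others, a ratio of 0.80 (0.60 to 1.04). Bnip3l and Hif1a also did not differ beyond counting error. The ratios of Slc2a3, 0.52 (0.21 to 1.12), and Egln3, 0.47 (0.05 to 1.82), were lower than that of Hilpda, with intervals that include 1. Cells were chosen for enzyme counts at equal depth, and the 3 choosing genes were taken out of the totals.

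**Figure D5:**
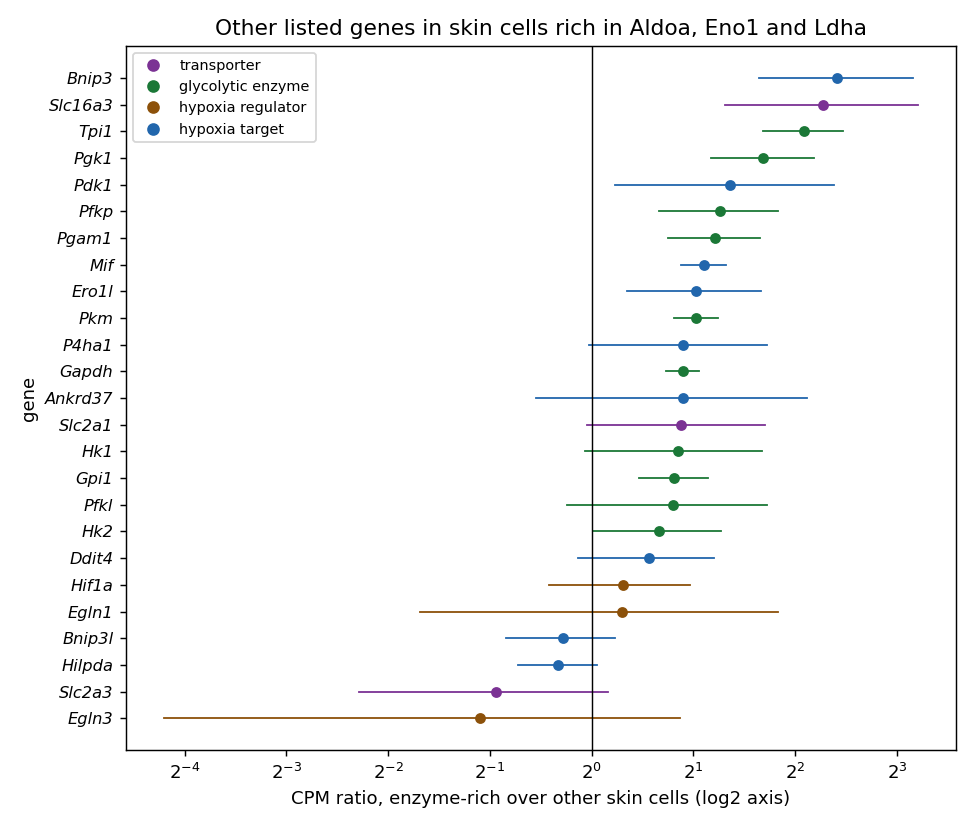
Ratio of CPM in the 125 enzyme-rich over the 958 other thinned skin cells (log2 axis) for listed genes with at least 20 counts other than the 3 used to choose the cells. Points are ratios and bars exact 95% intervals for counting error only. Bnip3, Slc16a3, Tpi1 and Pgk1 lie above 3-fold, whereas Egln3, Slc2a3, Hilpda and Bnip3l lie below 1 with intervals that include it.

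Of the 8 CD8 T cell markers, 4 (Cd8a, Cd3e, Trac and Thy1) were detected in a larger share of the enzyme-rich than of the other skin cells and 4 (Cd8b1, Cd3d, Cd3g and Cd2) in a smaller one. Cd8a was detected in 91.2% of the enzyme-rich cells and 88.2% of the others, Cd8b1 in 84.8% and 89.2%, and Thy1 in 83.2% and 77.5%. The keratinocyte gene Sfn was detected in 5.60% and 7.10%. Of the other keratinocyte genes measured, Krt10 was detected in a smaller share of the enzyme-rich cells and Perp in a slightly larger one. Scrublet called 3.20% of the enzyme-rich and 2.40% of the other skin cells doublets. The median count before thinning was 2753 and 2590.5. Cell cycle genes were 1.06-fold (0.90 to 1.24) and the dissociation list 0.86-fold (0.83 to 0.88) the level of other skin cells. When the enzyme-rich cells were left out of skin and lymph node, the skin over lymph node ratio was 1.85 for Pgk1, 2.48 for Tpi1, 2.86 for P4ha1, 21.6 for Hk2 and 12.1 for Hilpda. The ratios of Eno1 and Ldha, 1.80 and 1.79 without those cells, were lowered by the choice of the cells itself.

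Within skin, the genes that were high together in pooled cells were not all high in the same cells. Skin cells with a Hilpda count had 0.96 times (0.92 to 1) the level of transporters and enzymes of those without and 0.95 times (0.86 to 1.04) that of the other hypoxia response genes. Within that split Slc2a1 was 1.78-fold (1.10 to 2.85) and Hif1a 1.55-fold (1.10 to 2.15) higher. Skin cells with an Hk2 count had 4858 CPM of the other transporters and enzymes, against 4849 in those without. Skin cells with a Pgk1 count, by contrast, had 1.47 times (1.40 to 1.55) that level, with Aldoa at 1.65, Pkm at 1.55 and Hilpda at 0.66 times (0.50 to 0.86). In liver, cells with a Hilpda count had 1.51 times (1.12 to 2.02) the Ddit4 level and 2.10 times (1.14 to 3.85) the Slc2a1 level of cells without. These splits were chosen after the data were seen, and only part of a cell's transcripts is sampled, so a cell without a count may express the gene.

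Splits by residency markers and by cycling moved the summed levels of enzymes and targets little, but Hk2 was higher in skin cells with both residency markers. Whether residency itself was behind the Hk2 difference was not tested. In thinned skin cells, those with counts of both Itgae and Cd69, markers of tissue residency, had 0.97 times (0.93 to 1.01) the enzyme level and 0.98 times (0.90 to 1.06) the target level of other skin cells. Hk2 was 116 CPM in the 401 skin cells with both markers and 54.4 in the 682 others, 2.14-fold (1.54 to 2.97) higher. It was the 1 listed gene whose interval lay above 1 in this split, and Aldoa, at 0.91 times (0.83 to 0.99), was the 1 below. Cells with at least 3 cell cycle counts had 1.18-fold (1.10 to 1.26) the enzyme level in skin and 1.29-fold (1.20 to 1.40) in lung. The ratio was 1.26 (1.11 to 1.43) in lymph node and 1.06 (0.88 to 1.27) in liver. Without Gapdh it was 1.16 (1.07 to 1.24) in skin and 1.17 (1.01 to 1.34) in lymph node. In lung it was then 1.04 (0.94 to 1.15), so the lung excess lay largely in Gapdh. Targets did not differ beyond counting error in any tissue. Hypoxia regulators were 35.4 CPM in cycling lung cells and 87.1 in other lung cells, 0.41 times (0.17 to 0.81). In the other tissues the interval for regulators included 1. Immediate early transcripts were found in 95.3% of thinned skin cells. The 51 skin cells without any had 5448 CPM of enzymes against 4782 in the rest. Transporters were 208 CPM in those 51 cells and 109 in the rest, which had 0.52 times (0.33 to 0.88) the level. All skin cells were digested alike, and a cell without a sampled count may still express these genes. Hypoxia targets were 1206 CPM in the cells without and 1244 in the rest. Hk2 went the other way: it was 80.2 CPM in skin cells with an immediate early count (156 counts) and 20.8 in those without (2 counts), 3.86-fold (1.05 to 32.1). Hilpda was 328 and 218 CPM, a ratio whose interval (0.98 to 2.45) includes 1. Tpi1, Ldha and Pdk1 were instead lower in the cells with such a count, at 0.55, 0.76 and 0.26 times the level of those without. These ratios rest on the same 51 cells.

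Neighbouring parts of metabolism were described by fixed lists. Of 10 other measured glycolysis genes, including further isozymes and transporters, 1 was at least 2-fold higher and 0 lower in skin than in lymph node, where 5.59% of all genes were higher and 10.3% lower. It was Aldoc, a second aldolase, at 9.42 CPM in skin and 2.35 to 2.65 elsewhere. The median of these 10 was -0.29 log2, beside -0.20 over all genes, with 3 higher and 7 lower in skin to any degree. Of 7 pentose phosphate genes, 9 genes of pyruvate oxidation and 8 of NADH shuttles, 0 reached 2-fold in either direction, with medians of -0.31, 0.11 and 0.08 log2. The skin excess was thus larger over the listed enzymes, whose median was 0.95, than over these neighbouring lists. That difference was not tested, and the listed enzymes and these lists were chosen with earlier results of these data known. Among 15 inducers and restraints of glycolysis, 1 was at least 2-fold higher and 1 lower in skin than in lymph node. The shares of all genes were the same 5.59% and 10.3%. To any degree 9 of the 15 were higher and 6 lower, with a median of 0.26 log2. Irf4, a transcription factor of T cell receptor signalling, was the higher 1, at 38.6 CPM in skin against 7.72 in lymph node. Txnip, which restrains glucose uptake, was the lower 1: 93.2 CPM in skin, 174 in liver, 269 in lung and 299 in lymph node.

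Of 23 further hypoxia targets, 5 were at least 2-fold higher in skin than in lymph node (Ndrg1, Bhlhe40, Tfrc, Anxa2, Fosl2) and 1 lower (Ankzf1), against the same 5.59% and 10.3% of all genes, and the median was 0.53 log2. Bhlhe40, a transcriptional repressor, had the skin and liver pattern of Hilpda in milder form: 310 CPM in skin, 286 in liver, 148 in lung and 81.0 in lymph node. Fosl2, an AP-1 subunit, stood at 250 CPM in skin, 59.1 in liver, 9.04 in lung and 15.2 in lymph node. For liver over lung, 1 of 23 was higher (Fosl2) and 1 lower (Hmox1), against 2.56% and 3.41% of all genes, and the median was -0.04. The 10 other regulators of the pathway had 0 genes past 2-fold in both of these comparisons.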

How the data were processed

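The authors deposited whole-number counts for 9223 genes in 5727 cells. Per the submitters' processing notes, Bowtie, RSEM and the build mm10 were used, and nothing in these notes says whether molecular identifiers were counted. The series lists 16 samples, 4 per tissue, whose titles differ by an ending in the form of a lane number, and the table has 1 set of cells per tissue, so cells were summed by tissue. The genes and lists were chosen with earlier results of these data known. All 32 listed genes could be named, and other genes only from the fixed lists and markers.

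Counts were divided by the tissue's total to give CPM. Ratios carry the exact 95% interval of a ratio of Poisson counts (conditional binomial) and shares the Clopper-Pearson interval, for counting error only. A difference was counted from 2-fold, among genes with at least 20 counts in the tissues compared. Cells were thinned to 1886 counts, the 10th percentile, and shallower cells left out. Doublets called by Scrublet (scanpy 1.11.5, expected rate 5%) numbered 62 (1.08%) and were kept, except in an alternative. edgeR 4.0.16 gave TMM factors for an alternative. The calculation was tested on simulated data. Positions are from GENCODE M21 (GRCm38) and promoters from RefSeq. Python 3.11.15, scipy 1.17.1 and R 4.3.3 were used.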

Additional observations from a re-analysis of the deposited data

How the results depend on the processing

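No paired analysis was possible because the table names 1 set of cells per tissue. Of 65 differences past 2-fold, 0 changed direction under the alternatives that gave them a value, but 13 fell under 2-fold with TMM factors, 10 without enzyme-rich cells (chosen after the data were seen; 6 of the 10 are Aldoa, Eno1 or Ldha, lowered by the choice of those cells), 5 of the 48 that still had a value without cells with an immediate early count, and 0 to 3 under each of the others. The alternatives in the cells and the totals were run for single genes as well, the minimum of 100 counts and the fold of 1.5 only for counts and medians. The depth limits genes of a few counts most, and where not stated the cause of a change was not tested.

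With TMM factors the median log2 ratio of transporters and enzymes was 1.12 for skin over lymph node, 0.41 for liver over lymph node and 0.40 for lung over lymph node. That of hypoxia response genes was 0.66 for skin over lung, and it changed sign to 0.11 for liver over lymph node and 0.14 for lung over lymph node. The counts of genes higher and lower became 9 and 2 for liver over lymph node and 5 and 4 for lung over lymph node, and 0 genes were lowest in both skin and liver. Without ribosomal protein and mitochondrial genes in the total, the hypoxia median for skin over lung was 0.75 and 2 genes were lowest in skin and liver.

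A minimum of 100 counts, which leaves fewer genes, gave 0 genes lower for skin over lymph node and over lung, 1 for skin over liver, 3 higher for liver over lymph node and 2 for liver over lung. Its medians were 1.11 for transporters and enzymes in skin over lung and -0.0453 in liver over lung, and 0.48 for hypoxia response genes in liver over lymph node. At 1.5-fold, 20 genes were higher for skin over lymph node, 9 higher and 9 lower for liver over lymph node, 8 and 1 for liver over lung, and 6 higher for lung over lymph node.

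Medians of transporters and enzymes close to 0 changed sign when cells were left out. For liver over lymph node they were -0.0313 without doublets, -0.0319 without cycling cells, -0.0262 without the top cell of each gene and -0.0507 without cells with an immediate early count. For liver over lung the value was -0.0334 without cycling cells, and for lung over lymph node it was -0.00199 without them and -0.0312 in thinned cells. Genes higher for lung over lymph node numbered 2 without cycling cells, 2 without the top cell and 1 in thinned cells. Liver over lung had 1 gene lower without the top cell, skin over liver 1 lower in thinned cells, and skin over lung 0 lower without doublets or cycling cells.

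Leaving out cells with an immediate early count kept 48 skin cells. Then 0 genes were lower for skin over lymph node, 8 were higher for skin over liver, and the medians were 1.37 and 0.46 for skin over lung and -0.0387 for hypoxia response genes in skin over liver. In those 48 cells the shares were 50% for Hk2, 100% for Ldha, 45.45% for Pfkp, 0% for Bnip3 and 0% for Egln3 of their pairs. In thinned cells Hk2 made up 11.8% of its pair in lung and Bnip3 15.8% in skin. Without enzyme-rich cells the Bnip3 share in skin was 8.52%, the hypoxia median for skin over lung 0.68, and 0 genes were lower there.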
